A study of Mus musculus with 21 samples.

Results

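Gsdmc2 and Gsdmd are genes of the gasdermin family, and their transcripts were followed here across 10 groups of sorted cells and 1 sample of whole small intestine from mice. The members were chosen by symbol, with Gsdmc2 taken because its signal lay lower after every injury and Gsdmd as its relative in the family. Each of the 2 genes had 1 probe set that named it alone, out of 18194 genes with such a probe set, and both were among the 11854 genes bright enough to be tested. A further 2 probe sets named Gsdmc2 together with a neighbouring gene and are described without a test.

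Gasdermins are made as inactive proteins whose amino-terminal part, once a protease has cut it free, inserts into membranes and forms pores. Through such pores a cell releases interleukins and may die by pyroptosis, a lytic and inflammatory form of cell death. GSDMD is cut by caspase-1 and by caspase-11, the product of mouse Casp4, after inflammasomes sense microbial or damage signals. The Gsdmc genes of the mouse are tandem copies that intestinal epithelium expresses, and type 2 cytokines acting through STAT6 are known to induce them during worm infection.

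The sorted cells were TdTomato-positive, labelled Mist1+ after the secretory-lineage transcription factor that Bhlha15 encodes, and were parted by the surface protein CD24 into a high (CD24hi) and a low (CD24lo) fraction. Each fraction came from mice whose Lgr5-positive stem cells had been ablated (titled DT), mice exposed to 10 Gy of radiation, mice treated with the DNA-damaging drug doxorubicin, mice labelled NICD (usually short for Notch intracellular domain) and untreated mice, with 2 arrays per group. The labels give no strain, age, sex, Cre driver, drug dose or time after treatment. DT came only together with ablation, so the effects of the agent and of the ablation cannot be told apart. Nor do they say whether replicates were separate animals, so p-values measure only the spread between these samples. Whole intestine, whose cell type is labelled villi, was 1 array and entered no test.

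On the 20 sorted arrays Bhlha15 signals were 1237 to 4707 in CD24hi cells and 211 to 665 in CD24lo cells, against 35.4 in whole intestine, and Cd24a signals were 14522 to 27244 in CD24hi and 7874 to 11998 in CD24lo cells. Lgr5 differed by -1.30 ± 0.56 in CD24hi and -1.42 ± 0.56 in CD24lo cells after ablation (log2 difference ± SE; limma adjusted p = 0.455 and 0.585), so its loss did not pass the test. Median signals were 101 to 158 per array. Replicates had a Pearson r of 0.942 to 0.985 over genes, which are not independent, and precision is limited by having 2 arrays a group. In its control probes 1 array stood apart, replicate 2 of CD24hi NICD, where the cre spike-in read 75343 (all others 22819 to 48833) and actin had a 3' to 5' ratio of 1.03 (all others 1.30 to 1.58). Signals are linear MAS5 intensities, and differences are of log2(signal + 16) with 2 arrays per group unless stated otherwise, a scale that understates the change of dim genes. Adjusted p-values come from limma fitted over all 20 sorted arrays with Benjamini-Hochberg adjustment over the 11854 genes, and 0.05 was the threshold.

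Gsdmc2 was brightest in untreated CD24lo cells and at the bottom of the signal range in irradiated and doxorubicin-treated cells of both fractions. In CD24hi cells its signals were 22.4 and 29.9 after Lgr5 ablation, against 125 and 171 in untreated CD24hi cells. CD24lo cells gave 160 and 132 after ablation, against 1189 and 1297 in untreated CD24lo cells. Both ablated groups lay wholly below their untreated group.

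After irradiation Gsdmc2 signals were 0.766 and 0.909 in CD24hi cells and 0.445 and 1.13 in CD24lo cells. Doxorubicin gave 0.403 and 4.90 in CD24hi cells and 1.89 and 8.42 in CD24lo cells. All 8 of these arrays placed Gsdmc2 between the 0.211 and 11.7 percentile of their own probe sets, while the 4 untreated arrays placed it between 47.7 and 87.1. The table carries no detection calls, so signals this low have no order among themselves and bound the level only from above.

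With NICD the gene lay between these extremes, at 72.1 and 46.5 in CD24hi and 475 and 322 in CD24lo cells. Whole intestine gave 273, above all CD24hi arrays and below the 4 CD24lo arrays of the NICD and untreated groups. On 7 of the 20 sorted arrays Gsdmc2 lay above the median of all probe sets, and on 9 it lay below the 25th percentile.

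**Figure D1:**
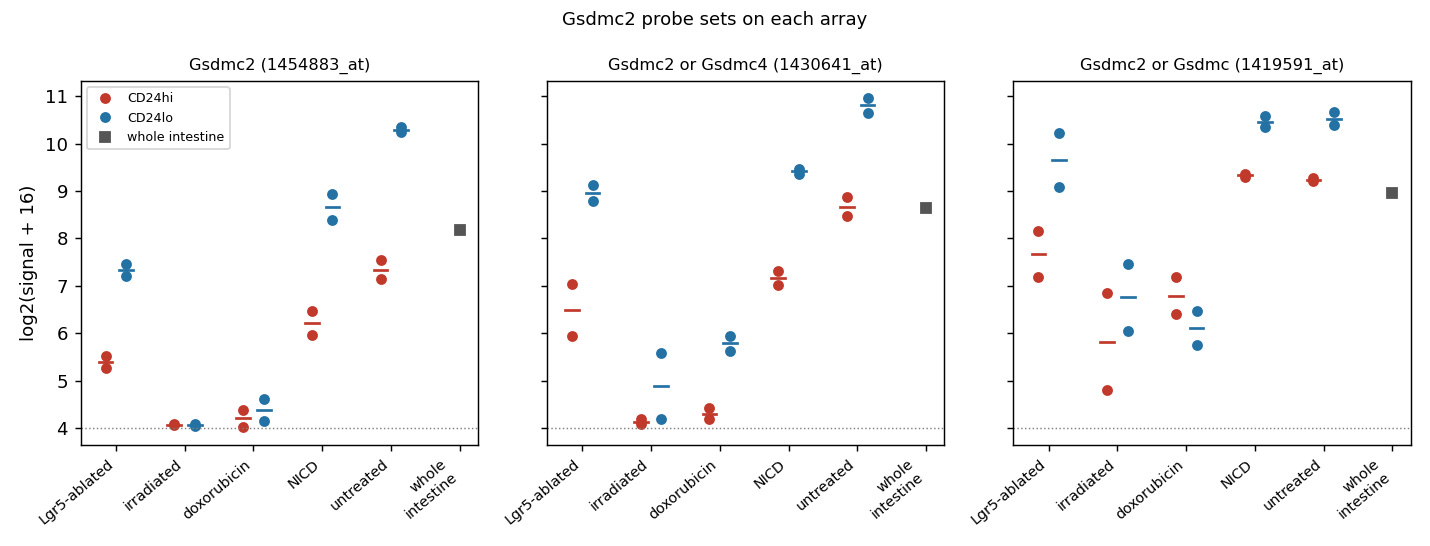
Signal of the 3 probe sets that name Gsdmc2, as log2(signal + 16), for each array (points) with group means (bars) in CD24hi (red) and CD24lo (blue) cells and whole intestine (grey square), the dotted line marking a signal of 0. On the probe set of Gsdmc2 alone, the irradiated and doxorubicin arrays sit at the dotted line or just above it, with signals of 0.403 to 8.42.

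Ordered by mean level, untreated CD24lo came first and NICD CD24lo next, each apart from its neighbour below. Untreated CD24hi and ablated CD24lo cells overlapped. NICD CD24hi and ablated CD24hi cells followed, each apart from the next. The irradiated and doxorubicin groups came at the bottom, each overlapping its neighbour.

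The differences between treated and untreated cells chose this gene, so they are given as a description with no test. On the log2 scale Gsdmc2 differed by -1.95 in CD24hi and -2.96 in CD24lo cells after Lgr5 ablation. After irradiation the differences were -3.27 in CD24hi and -6.23 in CD24lo cells. Doxorubicin gave -3.13 and NICD -1.13 in CD24hi cells, and -5.91 and -1.63 in CD24lo cells. Sizes against signals this low depend on the pseudocount: after irradiation they were -6.33 in CD24hi and -9.47 in CD24lo cells with log2(signal + 1), and -1.70 and -4.33 with log2(signal + 64). After doxorubicin they were -5.68 in CD24hi and -7.90 in CD24lo cells with log2(signal + 1), and -1.66 and -4.24 with log2(signal + 64). The same untreated arrays serve all of these comparisons within a fraction.

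Among all 11854 genes, ordered from the most negative difference, Gsdmc2 stood at place 2 in CD24lo and 19 in CD24hi cells after ablation. After irradiation and doxorubicin its signals only bound the level, so no place is given. With NICD its places were 49 in CD24lo and 108 in CD24hi cells. Gsdmc2 was picked as the 1 gene of 11854 (0.00844%) called lower in all 6 injury comparisons, so the choice fixed that call and it is no support. The calls after irradiation and doxorubicin also rest on signals that only bound the level. Without a test, 1228 genes (10.4%) had a difference below 0 in all 6. In bulk samples such as these, fewer cells of a type and less RNA per cell cannot be told apart.

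In RefSeq's annotation of GRCm38.p6 Gsdmc2 lies on chromosome 15 in a row of near copies, in the order Gsdmc, Gsdmc2, the pseudogene Gsdmcl1, Gsdmc3, the pseudogene Gsdmcl2, Gsdmc4 and the pseudogene Gsdmcl-ps. Gsdmd lies elsewhere on the same chromosome. Probe sets in such a row may read several copies, and the file gives no probe coordinates, so the signal of each Gsdmc probe set is uncertain as to its gene.

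The probe set assigned to Gsdmc2 or Gsdmc4 showed the same order of conditions. It read 45.8 and 116 in CD24hi cells after ablation, 2.21 and 0.923 after irradiation, 5.44 and 2.19 after doxorubicin and 114 and 144 with NICD, against 451 and 337 in untreated CD24hi cells. In CD24lo cells it read 429 and 542 after ablation, 2.19 and 32.1 after irradiation, 46.0 and 33.6 after doxorubicin and 691 and 643 with NICD, against 1991 and 1579 in untreated CD24lo cells. All 8 treated groups lay below the untreated group of their fraction, and whole intestine read 381.

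The probe set assigned to Gsdmc2 or Gsdmc showed another pattern with NICD. Its NICD signals were 642 and 612 in CD24hi cells and 1514 and 1290 in CD24lo cells, against 599 and 576 in untreated CD24hi and 1322 and 1599 in untreated CD24lo cells, so no lower level was seen with NICD. After ablation it read 130 and 271 in CD24hi and 531 and 1186 in CD24lo cells. After irradiation it read 99.0 and 12.0 in CD24hi and 161 and 50.5 in CD24lo cells, and after doxorubicin 130 and 68.7 in CD24hi and 37.7 and 72.3 in CD24lo cells. These injured groups all lay below the untreated group of their fraction.

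Across the 20 sorted arrays the probe set of Gsdmc2 alone correlated at Pearson r = 0.960 with the Gsdmc2 or Gsdmc4 probe set and at 0.899 with the Gsdmc2 or Gsdmc probe set. The last of these correlated at 0.892 with the Gsdmc2 or Gsdmc4 probe set. These are descriptions over arrays that share groups and fractions, and the probe sets may share target transcripts. Probe sets of the pseudogenes Gsdmcl1 and Gsdmcl-ps lay above the median of no sorted array.

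The comparison of the fractions was not the one that chose Gsdmc2, and it was tested. It does use the same untreated and injured arrays as that choice, so its p-values are not independent of the choice. Gsdmc2 was lower in CD24hi than in CD24lo cells of untreated mice, by -2.95 ± 0.38 (SE, limma adjusted p = 8.72e-05; 14.4% of all genes passed in this comparison). The probe set lay above the array median on 6 CD24lo arrays and 1 CD24hi array, so the filter let it in through the fraction where it is brighter. With no filter, over 18194 genes, the untreated difference was again -2.95 (limma adjusted p = 5.99e-05). With NICD the difference was -2.46 ± 0.38 (limma adjusted p = 0.000487, against 24.2% of genes passing). After Lgr5 ablation it was -1.94 ± 0.38 (limma adjusted p = 0.00553, against 6.98% passing), which became 0.0572 without replicate 1 of ablated CD24hi, 0.0909 with log2(signal + 1) and 0.172 in a fit to the ablated groups alone.

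In irradiated cells the fractions differed by 0.00 ± 0.38 and in doxorubicin-treated cells by -0.17 ± 0.38 (limma adjusted p = 0.997 and 0.772), where all arrays lay at the bottom of the signal range and a difference was not detectable. As an average over all 5 conditions (10 arrays per fraction), CD24hi was lower by -1.50 ± 0.17 (limma adjusted p = 2.22e-06), in a comparison in which 46.6% of all genes passed. This average takes in the irradiated and doxorubicin arrays and the arrays that chose the gene. Its p-value is thus no support for a difference in every condition. Markers of enterocytes, absorptive cells of the villus, moved with the fractions. Of 8 measured enterocyte genes 7 were lower in CD24hi cells in this average, against 19.2% of all genes called lower. Their summed signal was 15190 to 20374 in untreated CD24hi and 49078 to 58713 in untreated CD24lo cells. Among markers of goblet cells Clca1 (-1.02) and Zg16 (-0.68) were also called lower, Spink4 (0.63) was called higher and the others were not called. The part of either marker list in the Gsdmc2 result was not tested. After doxorubicin the enterocyte sum was 42154 to 42206 in CD24hi and 99430 to 112346 in CD24lo cells, above the untreated range of the same fraction. The sums after irradiation and ablation overlapped the untreated ranges, at 56683 to 62312 and 36287 to 69198.5 in CD24lo cells. Sums of 6 stem cell markers in CD24lo cells were 2006 to 2303 after doxorubicin, 1749 to 2919 after irradiation and 6152 to 9264 after ablation. They were 12604 to 14637 in untreated and 17695 to 20202 in NICD CD24lo cells. In CD24hi cells, where Gsdmc2 was lower, the stem cell sums were higher, at 29910 to 32365 untreated and 14924 to 17605 after ablation. They were 9904 to 10237 after irradiation, 17708 to 18712 after doxorubicin and 23477 to 28261 with NICD. In irradiated CD24lo cells Lgr5, Olfm4, Smoc2 and Axin2 were called lower, where 4.02% of all genes passed in either direction, and Ascl2 and Sox9 were not called. The part of these markers in the Gsdmc2 levels was not tested.

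Gsdmd encodes the gasdermin that inflammasome caspases cut, and its signal lay above the median of the array on all 20 sorted arrays. In CD24hi cells it read 1017 and 922 after Lgr5 ablation, 248 and 819 after irradiation, 524 and 592 after doxorubicin and 1161 and 1121 with NICD, against 432 and 399 in untreated CD24hi cells. Only irradiation left a CD24hi group that overlapped the untreated one. The CD24lo cells read 1786 and 2689 after ablation, 1547 and 2079 after irradiation, 2149 and 2238 after doxorubicin and 904 and 607 with NICD, against 1302 and 1069 in untreated CD24lo cells.

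Among the CD24lo groups the injured cells thus lay above and the NICD cells below the untreated cells, with no overlap. Whole intestine read 9483, the 98.5 percentile of its array and above all sorted arrays. No level was near the bottom of the range for this gene, in contrast to Gsdmc2. Over the 20 arrays the levels of both genes correlated at r = 0.0038, and at -0.345 after the mean of each fraction was subtracted.

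**Figure D2:**
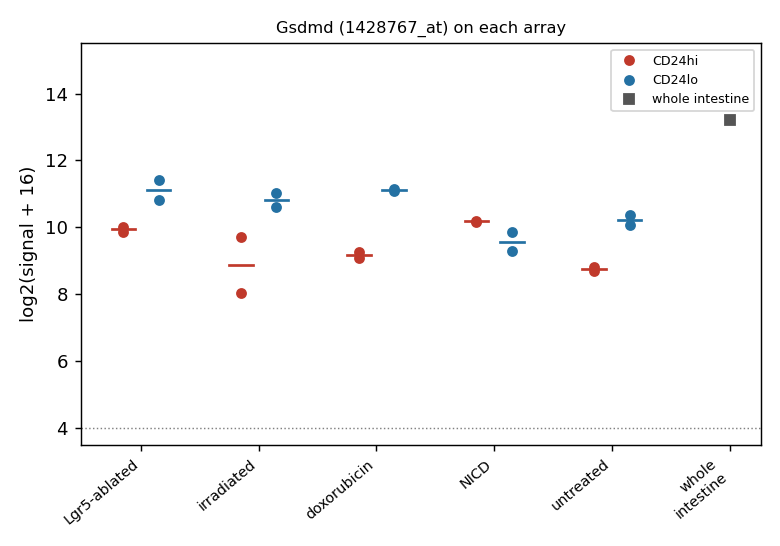
Gsdmd signal as log2(signal + 16) for each array (points) with group means (bars) in CD24hi (red) and CD24lo (blue) cells and whole intestine (grey square). CD24lo lies above CD24hi in each condition other than NICD, and whole intestine, at a signal of 9483, lies above all sorted arrays.

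In order of mean level, the CD24lo cells of doxorubicin-treated, ablated and irradiated mice came first. The ablated group overlapped each of the others, while the doxorubicin and irradiated groups lay apart. Untreated CD24lo and NICD CD24hi cells followed, overlapping each other, and then ablated CD24hi and NICD CD24lo cells, each apart from the next. The CD24hi cells of doxorubicin-treated, irradiated and untreated mice came last, each overlapping its neighbour.

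Gsdmd was lower in CD24hi than in CD24lo cells in the average over the 5 conditions, by -1.18 ± 0.16 (SE, 10 arrays per fraction, limma adjusted p = 1.71e-05), and this passed without each of the 20 arrays in turn. Within conditions the difference was -1.95 ± 0.36 in irradiated and -1.95 ± 0.36 in doxorubicin-treated cells (limma adjusted p = 0.00155 and 0.00107, where 15.8% and 28.3% of all genes passed). In untreated cells it was -1.47 ± 0.36 (limma adjusted p = 0.0113), which became 0.0893 without replicate 1 of untreated CD24lo, 0.0541 without replicate 1 and 0.0725 without replicate 2 of untreated CD24hi. In ablated cells it was -1.17 ± 0.36 and short of the threshold (limma adjusted p = 0.0652, or 0.0383 without replicate 1 of ablated CD24lo and 0.551 without replicate 2).

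With NICD the fractions stood the other way round, CD24hi above CD24lo by 0.61 ± 0.36, which did not pass (limma adjusted p = 0.230; 95% interval -0.16 to 1.38). In CD24hi cells Gsdmd rose with NICD by 1.42 ± 0.36 over untreated cells (limma adjusted p = 0.0274, where 6.56% of all genes passed). This call was lost without replicate 2 of CD24hi NICD, the array that stood apart, at a difference of 1.45 and limma adjusted p = 0.157. It was also lost without replicate 1 or 2 of untreated CD24hi (limma adjusted p = 0.0988 and 0.147). In CD24lo cells the NICD difference was -0.66 ± 0.36 (limma adjusted p = 0.216, where 14.4% of genes passed), and over both fractions it was 0.38 ± 0.26 (0.325, where 14.6% passed).

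The effect of NICD on Gsdmd differed between the fractions by 2.08 ± 0.52, higher in CD24hi cells (limma adjusted p = 0.0454, with 2.65% of genes passing this test). In 6 of 8 fits that left out 1 array the call was lost, with limma adjusted p of 0.0759 to 0.244. It was kept without replicate 1 of NICD CD24lo (0.0346) and without replicate 1 of NICD CD24hi (0.0229). Fits with no filter on dim probe sets and with no variance trend also lost it (limma adjusted p = 0.0639 and 0.0741).

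Of 8 enterocyte markers 2 were called higher and 0 lower with NICD in CD24hi cells, where 6.56% of all genes passed, and 0 higher and 3 lower in CD24lo cells, where 14.4% passed. Their summed signals were 24948 to 36130 in CD24hi NICD and 29303 to 30059 in CD24lo NICD, against 15190 to 20374 in untreated CD24hi and 49078 to 58713 in untreated CD24lo cells. The sum of 5 genes listed as T cell markers was also higher in CD24lo NICD, at 4190 to 5343 against 171 to 978 in untreated CD24lo cells. Ptprc at 4.41 ± 0.70, Cd7 at 2.16 ± 0.68 and Cd8a at 1.91 ± 0.60 were called (limma adjusted p = 0.00470, 0.0445 and 0.0439). Cd3e at 0.48 ± 0.62 and Cd3g at 0.54 ± 0.48 were not (limma adjusted p = 0.607 and 0.445). The part of either marker list in the Gsdmd values was not tested.

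After injury no single Gsdmd comparison passed. The ablated cells differed from untreated cells by 1.19 ± 0.36 in CD24hi and 0.88 ± 0.36 in CD24lo cells (limma adjusted p = 0.192 and 0.600, where 0.852% and 0.236% of genes passed). Averaged over both fractions the ablation difference was 1.04 ± 0.26 (4 arrays per side, limma adjusted p = 0.0539, where 1.59% of genes passed; 95% interval 0.49 to 1.58). That p was 0.0392 without replicate 1 of ablated CD24lo and 0.0298 in a fit to these groups alone.

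Doxorubicin gave 0.41 ± 0.36 in CD24hi and 0.89 ± 0.36 in CD24lo cells (limma adjusted p = 0.743 and 0.107, where 1.2% and 14.7% of genes passed), and 0.65 ± 0.26 over both fractions (limma adjusted p = 0.0938, where 16.4% passed). A fit to the compared groups alone gave adjusted p = 0.0172 for doxorubicin in CD24lo cells and 0.00486 over both fractions. Irradiation gave 0.12 ± 0.36 in CD24hi and 0.60 ± 0.36 in CD24lo cells (limma adjusted p = 0.919 and 0.373, where 4.44% and 4.02% of genes passed), and 0.36 ± 0.26 over both (0.382, where 13.6% passed). The CD24hi value turned to -0.71 without irradiated CD24hi replicate 2, and the value over both fractions was 0.77 without irradiated CD24hi replicate 1 (limma adjusted p = 0.0170) and -0.06 without replicate 2.

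For Gsdmd the ablation, irradiation and doxorubicin effects differed between CD24hi and CD24lo cells by 0.31, -0.48 and -0.48, each ± 0.52 (limma adjusted p = 0.996, 0.9997 and 0.821, in tests that 0.0169%, 0.00844% and 0.0337% of genes passed). The intervals of these 3 differences reached from -0.78 to 1.39, from -1.57 to 0.61 and again from -1.57 to 0.61. They leave room for sizeable differences in either direction.

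**Figure D3:**
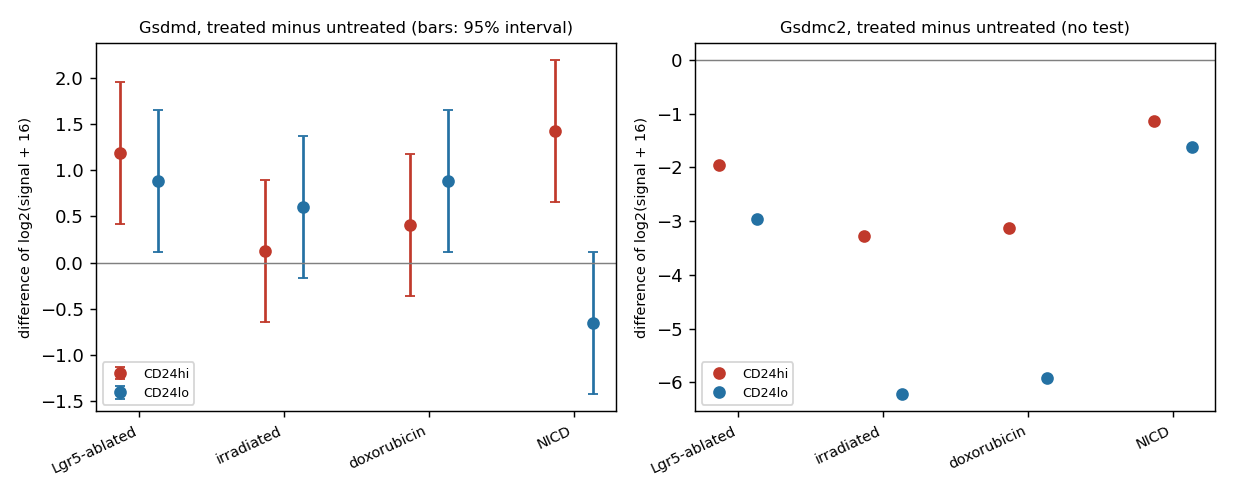
Difference from untreated cells on the log2(signal + 16) scale for Gsdmd (left, bars are 95% intervals from limma) and Gsdmc2 (right, no test), with CD24hi in red and CD24lo in blue. Gsdmc2 lies below 0 in all 8 comparisons, down to -6.23, whereas Gsdmd lies between -0.66 and 1.42.

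The gasdermin family, both members included, was read from a list of 10 genes, of which 5 were tested. Over the average of the 5 conditions 2 of the 5 were higher and 3 lower in CD24hi cells, with a median difference of -0.95 against 0.07 for all genes. Of all genes 27.4% passed as higher and 19.2% as lower. The 3 lower ones were the members Gsdmc2 and Gsdmd, and Gsdme at -0.95. The 2 higher ones were Gsdma at 0.62 and Gsdma2 at 1.09, so the other tested gasdermins did not share 1 direction. Gsdma3, Gsdmc, Gsdmc3, Gsdmc4 and Pjvk were not analysed here.

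Gsdme, which encodes another pore-forming gasdermin, read 504 and 664 in untreated CD24hi cells and 1245 and 1254 in untreated CD24lo cells. It was lower in CD24hi cells by -0.95 ± 0.09 over the 5 conditions (limma adjusted p = 3.31e-07). NICD CD24hi cells read 1369 and 1475, and the rise over untreated CD24hi cells was 1.27 ± 0.20 (limma adjusted p = 0.00145), which passed without each of the 4 arrays in turn. A second probe set of Gsdme did not follow this, with 454 and 419 in NICD CD24hi cells against 508 and 480 in untreated CD24hi cells.

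Gsdma, a gasdermin known mainly from skin, read 597 and 656 in NICD CD24hi cells against 52.6 and 52.9 in untreated CD24hi cells. The difference was 3.22 ± 0.46 on the log2 scale. This probe set lay above the array median on 3 sorted arrays, of which 2 were NICD CD24hi, so it reached the test through the group where it is high and its call there is no support. Its other probe set read 209 and 223 in NICD CD24hi cells, against 25.4 and 47.7 in untreated CD24hi cells, so both probe sets lay apart. In CD24lo cells Gsdma read 143 and 147 with NICD, against 46.7 and 65.6 in untreated CD24lo cells. The effect of NICD on Gsdma was not called different between the fractions (2.05 ± 0.66, limma adjusted p = 0.0771). The difference of Gsdma between CD24hi and CD24lo cells over the 5 conditions, 0.62 ± 0.21 (limma adjusted p = 0.0214), likewise rests on a probe set let in by CD24hi arrays, and its call was lost without replicate 1 of irradiated CD24lo (0.0532) or replicate 1 of doxorubicin CD24hi (0.0505).

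Gsdma2 is the close relative of Gsdma in the mouse. It was higher in CD24hi cells by 1.09 ± 0.21 over the 5 conditions (limma adjusted p = 0.000432), reading 2537 and 2699 in irradiated CD24hi against 725 and 1060 in irradiated CD24lo cells. Whole intestine read only 42.4 for it, below all 20 sorted arrays. Of its 5 probe sets, 4 carry name endings used for probe sets that may read more than 1 transcript or gene.

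**Figure D4:**
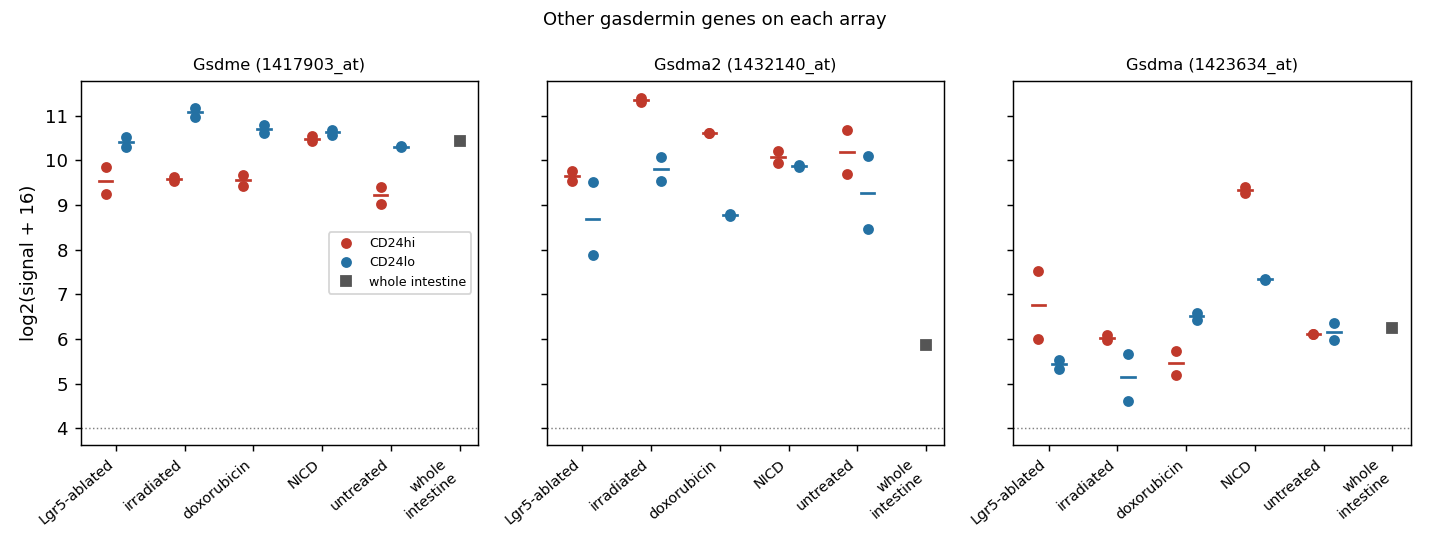
Signals of Gsdme, Gsdma2 and Gsdma as log2(signal + 16) for each array (points) with group means (bars) in CD24hi (red) and CD24lo (blue) cells and whole intestine (grey square). The Gsdma points of NICD CD24hi cells, at signals of 597 and 656, lie above those of every other group.

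Genes that act before and after the gasdermin pore were read from 5 lists. In the average over the 5 conditions, 19.2% of all genes passed as lower and 27.4% as higher in CD24hi cells. Of the inflammasome sensors and adaptors, 7 of 13 were tested, and over the 5 conditions 4 were lower and 1 higher in CD24hi cells, with a median of -0.63. The lower ones were Nlrp6, a sensor of the intestinal epithelium, at -0.96 ± 0.13, Naip6 at -0.93 ± 0.08 and Naip5, receptors for bacterial flagellin, at -0.88 ± 0.09, and Pycard, the adaptor that joins sensors to caspase-1, at -0.63 ± 0.10. Nek7, a kinase that the NLRP3 inflammasome needs, was higher by 0.56 ± 0.12.

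Of the proteases that cut gasdermins, 6 of 10 were tested, and 4 were lower and 0 higher in CD24hi cells, with a median of -0.59. They were Casp1 at -1.39 ± 0.14, Casp4 at -0.99 ± 0.12, Casp8 at -0.46 ± 0.07 and Casp6 at -0.44 ± 0.13. Caspase-1 and the Casp4 product act on GSDMD, and caspase-8 is known to cut GSDMC. In untreated cells Casp1 read 3653 and 2330 in CD24hi and 7987 and 5271 in CD24lo cells.

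Among the cytokines and rupture genes, 5 of 7 were tested, with 2 lower, 1 higher and a median of -0.18. Il18, an interleukin that caspase-1 matures and gasdermin pores release, was lower by -2.35 ± 0.23, reading 268 and 146 in untreated CD24hi and 1744 and 897 in untreated CD24lo cells. Il33, an alarmin, was lower by -2.28 ± 0.27. Ninj1, whose product breaks the plasma membrane late in lytic death, was higher by 0.89 ± 0.10. Il1b was too dim to be tested.

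The ESCRT machinery repairs membranes that gasdermins have pierced. All 8 listed genes were tested, and 4 were lower and 0 higher, with a median of -0.27, led by Chmp2b at -0.94 ± 0.10. Of the upstream regulators 8 of 9 were tested, and 5 were lower and 0 higher, with a median of -0.42. Ifngr1, a receptor chain for interferon gamma, was lower by -0.92 ± 0.08, and the transcription factors Irf1 by -0.44 ± 0.08 and Irf2, a known activator of Gsdmd, by -0.40 ± 0.10. Il4ra and Stat6, the receptor and transcription factor of the type 2 cytokines, differed by -0.18 ± 0.09 and -0.03 ± 0.08 and did not pass (limma adjusted p = 0.109 and 0.776).

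Limma adjusted p-values of the called pathway genes named for this average, other than Gsdma, were at most 0.0100, and those calls passed without any 1 of the 20 arrays. Of the 39 tested genes 36 lay above the array median on at least 2 arrays of each fraction. The other 3 were Gsdma, which did so only in CD24hi cells, Il33, which did so only in CD24lo cells, and Gsdmc2, so the filter let these in mainly through the fraction where they are brighter and their calls lend the list counts no support. Leaving out the array that stood apart gave the same counts for all 6 lists. Since 7 of 8 enterocyte genes were also lower in CD24hi cells, the pathway genes and these markers moved together, and the part of the one in the other was not tested. The median over all genes was 0.07 here, with 19.2% of them called lower and 27.4% called higher.

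**Figure D5:**
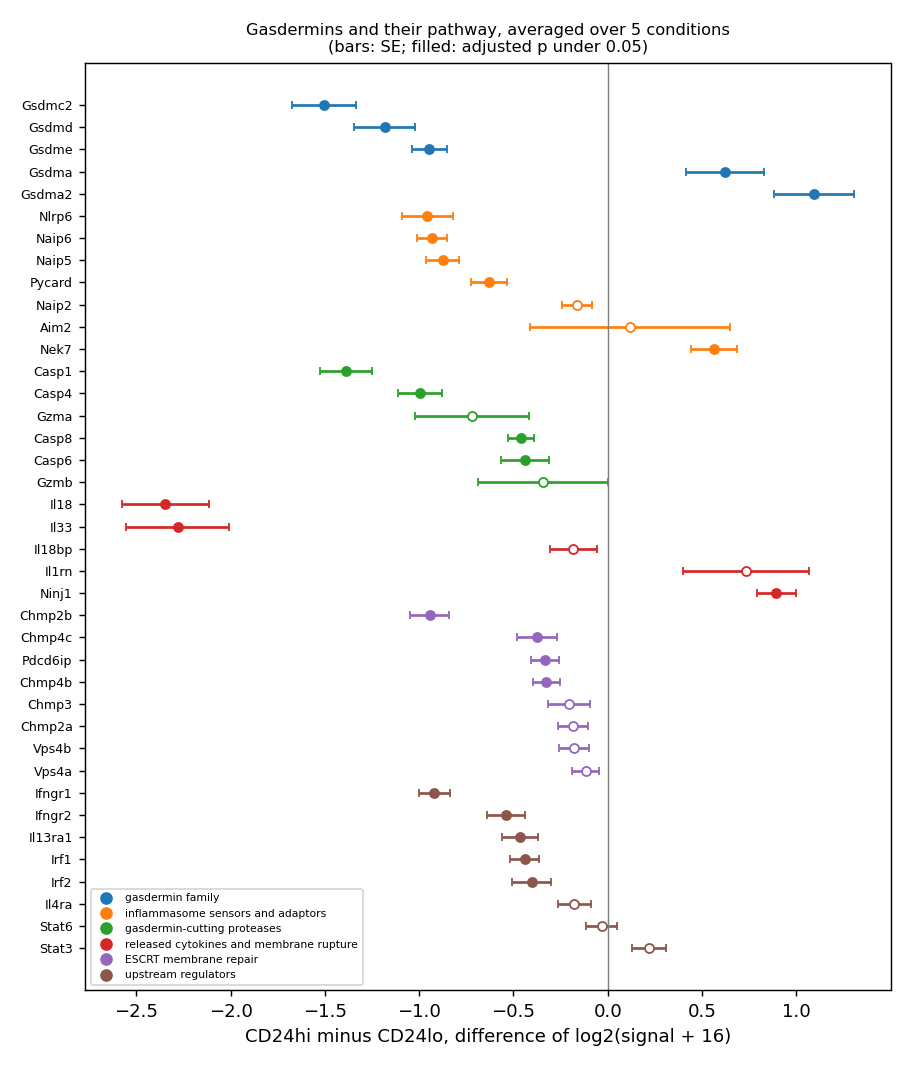
CD24hi minus CD24lo difference averaged over the 5 conditions, on the log2(signal + 16) scale, for the tested genes of the 6 lists (colours), with SE bars and filled points for limma adjusted p below 0.05. Most filled points lie below 0, from -0.32 for Chmp4b to -2.35 for Il18, and Gsdma2, Ninj1, Gsdma and Nek7 lie above 0.

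Over 8 comparisons of treated with untreated cells, 20 calls fell on 14 of the 37 tested pathway genes other than the members. These were 6.76% of 296 tests, near the 5.81% called among all genes in the same comparisons, and 4 of the 20 passed without each array in turn. They were Gsdma and Gsdme with NICD in CD24hi cells, described above, Nlrp6 after irradiation in CD24hi cells and Gzma after doxorubicin in CD24lo cells. The Gsdma call lends these counts no support, since its probe set reached the test through the NICD CD24hi group. Nlrp6 read 278 and 578 in irradiated CD24hi cells, against 2390 and 1793 in untreated CD24hi cells, and fell by 2.32 ± 0.30 (limma adjusted p = 0.000189).

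Gzma, which encodes a protease of killer lymphocytes that can cut GSDMB in humans, read 1301 and 1329 in doxorubicin CD24lo cells, against 93.5 and 113 in untreated CD24lo cells. It rose by 3.48 ± 0.68 (limma adjusted p = 0.00431). T cell markers moved with it, at a sum of 1889 to 2016 in doxorubicin CD24lo against 171 to 978 in untreated CD24lo cells, and their part in the result was not tested. Il18 also rose in doxorubicin CD24lo cells, to 4464 and 4482, by 1.82 ± 0.52 (limma adjusted p = 0.0272). That call was lost without replicate 2 of untreated CD24lo (0.223) and without replicate 1 (0.130) or 2 (0.112) of doxorubicin CD24lo.

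Pycard, the inflammasome adaptor, fell after irradiation by 1.03 ± 0.22 in CD24hi and by 1.02 ± 0.22 in CD24lo cells (limma adjusted p = 0.00876 and 0.0145). In CD24hi cells this was lost without replicate 2 of untreated CD24hi (0.0898) and replicate 1 of irradiated CD24hi (0.174), and in CD24lo cells without replicate 2 of untreated CD24lo (0.156) and replicate 2 of irradiated CD24lo (0.125).

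The genes whose levels were most like those of each member were ranked by Pearson r over the 20 sorted arrays, which share groups, fractions and scaling. For Gsdmc2 the first was Ccl28, a chemokine of mucosal epithelium, at r = 0.882 (0.863 within fractions, Spearman rho 0.913). Scd2 at 0.830, Emg1 at 0.829, Banf1 at 0.818, Irf8 at 0.807 and Snw1 at 0.802 followed. These values take in the 8 irradiated and doxorubicin arrays, whose Gsdmc2 signals have no order among themselves. The ranks of those arrays in rho thus carry no information. Ccl28 read 393 to 463 in irradiated CD24hi cells against 1596 to 1736 in untreated CD24hi cells, and 981 to 1017 in irradiated CD24lo cells against 2494 to 2532 in untreated CD24lo cells.

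For Gsdmd the first was Ceacam18, a member of the carcinoembryonic antigen family, at r = 0.937 (0.883 within fractions, Spearman rho 0.922). Slc13a1, a sulfate transporter, followed at 0.896, then Uap1l1 at 0.886, Gcnt2 at 0.883, Dpysl3 at 0.882 and Rhof at 0.876. Ceacam18 read 154 to 234 in NICD CD24hi and 106 to 166 in NICD CD24lo cells, against 36.3 to 55.8 in untreated CD24hi and 159 to 281 in untreated CD24lo cells. Its NICD effect differed between the fractions by 2.36 ± 0.77, short of the threshold (limma adjusted p = 0.0807).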

How the data were processed

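RNA of 20 sorted cell samples and 1 whole intestine sample was measured on Affymetrix arrays from 0.8 ng of total RNA amplified with the GeneChip Pico kit, per the labels' protocols. The deposited values are linear intensity per probe set, which the authors computed with MAS5 according to the submitters' processing notes. Its version and any genome build are not given in the sources used here. The mean of each array, trimmed by 2 percent at each end, was 500.0. Of 45101 probe sets, 34958 named 1 gene, 932 several and 9211 none. Those above their array median on at least 2 of 20 sorted arrays were kept (22531), and each gene was read by its brightest kept probe set.

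Values were log2(signal + 16), fitted with limma 3.58.1 in R 4.3.3 with 10 group means, 10 residual degrees of freedom and a variance trend, two-sided, in 22 comparisons. The procedure was tested on simulated data. The members and lists were chosen with earlier results of these data known, so no list was tested. Named genes are the members, up to 4 called genes per list with the largest change, a short fixed set (Casp1, Casp4, Casp8, Pycard, Il18, Il1b, Ninj1, Irf1, Irf2, Stat6, Il4ra) and the 6 genes most like each member. Alternatives were other pseudocounts, scalings, filters, probe set rules and moderation, the compared groups alone, a replicate block, and each array left out. Lists without the array that stood apart and a replicate block within each condition were added after seeing the data. A planned search of promoter sequence was not run.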

Additional observations from a re-analysis of the deposited data

Results flagged for a closer look

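The NICD effect on Gsdmd differed between the fractions by 2.08 ± 0.52 (CD24hi minus CD24lo, limma adjusted p = 0.0454), as an interaction term tested it. The call was lost in most fits that left out 1 array, where the difference was 1.80 to 2.36. It was also lost with no filter on dim probe sets, no variance trend or a replicate block. Among its arrays was replicate 2 of CD24hi NICD, which stood apart in its control probes. CD24hi cells read 1161 and 1121 with NICD against 432 and 399 untreated, and CD24lo cells 904 and 607 with NICD against 1302 and 1069 untreated.

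Whole intestine, a sample outside every comparison, gave a Gsdmd signal of 9483, above the highest sorted array at 2689.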

How the results depend on the processing

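With all arrays kept, 302 values for the members kept direction and side of the threshold or, untested, moved by under 1 SD. Gsdmc2 against untreated cells depended on the pseudocount. With log2(signal + 1) CD24hi gave -2.46 after ablation, -6.33 after irradiation and -5.68 after doxorubicin, and CD24lo -9.47 and -7.90 after the last 2. With log2(signal + 64) CD24hi gave -1.23, -1.70 and -1.66 for these injuries and -0.78 with NICD, and CD24lo gave -2.64, -4.33 and -4.24. Quantile scaling gave -2.77 in ablated CD24lo cells. The fraction difference of Gsdmc2 after ablation was -2.45 (limma adjusted p = 0.0909) with log2(signal + 1) and -1.94 (0.172) with the groups alone, and after irradiation it turned to -0.0139 with centring on the 75th percentile (0.990).

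For Gsdmd that centring gave -1.24 (limma adjusted p = 0.0471) between ablated fractions. Ablation over both fractions gave 0.98 (0.0448) with log2(signal + 64), 1.04 (0.0497) with the mean of kept probe sets and 1.04 (0.0298) with the groups alone. That fit gave 0.89 (0.0172) for doxorubicin in CD24lo cells and 0.65 (0.00486) over both fractions. The NICD effect, 2.08, lost its call with no filter (0.0639), no variance trend (0.0741) and the replicate block (0.0508), which changed no other Gsdmc2 or Gsdmd call. The cause was not tested.

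No label ties replicate numbers to a shared source. Residuals of same-numbered fractions correlated at 0.344 in untreated, 0.385 in ablated, 0.0677 in irradiated, -0.0975 in doxorubicin and -0.149 in NICD cells, a hint of pairing in the first 2 only. A replicate block within each condition, added after seeing the data, called the Gsdmd fraction difference after ablation, -1.17 (limma adjusted p = 0.0134), kept the NICD effect (0.0155) and changed no other fraction call of the 2 genes.

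Fits without 1 array take the spread of its lone partner from other groups. The Gsdmc2 fraction difference ranged from -2.07 to -1.82 after ablation, -0.0248 to 0.0340 after irradiation and -0.399 to 0.0499 after doxorubicin. That of Gsdmd ranged from -1.61 to -1.33 in untreated and -1.46 to -0.87 in ablated cells. Against untreated cells Gsdmd gave -0.71 to 0.95 for irradiation in CD24hi, 1.37 to 1.48 for NICD in CD24hi, 0.89 to 1.18 for ablation and -0.0566 to 0.77 for irradiation over both fractions. Between fractions the irradiation effect ranged from -1.31 to 0.35 and that of NICD from 1.80 to 2.36.

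With the groups alone limma called 44 genes (827 in the full fit) between ablated, 5588 (3351) between doxorubicin and 1697 (2865) between NICD fractions. For CD24hi it called 33 (101) for ablation, 406 (142) for doxorubicin and 456 (778) for NICD, and for CD24lo 0 (28, with 485 at an unadjusted p under 0.05) after ablation, 221 (477) after irradiation and 861 (1709) with NICD. Over both fractions it called 73 (189) for ablation and 1006 (1729) for NICD.

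Without 1 array the limma counts between fractions were 868 to 1285 in untreated (1704 in full), 188 to 1474 in ablated (827), 768 to 1338 in irradiated (1868), 1726 to 2022 in doxorubicin (3351) and 646 to 3871 in NICD cells (2865). For ablation, irradiation, doxorubicin and NICD in turn they were 36 to 186 (101), 163 to 530 (526), 26 to 82 (142) and 206 to 2238 (778) in CD24hi, 12 to 46 (28), 112 to 322 (477), 394 to 1440 (1747) and 4 to 1741 (1709) in CD24lo, and 119 to 246 (189), 788 to 1535 (1610), 854 to 1828 (1939) and 489 to 1933 (1729) over both.

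The NICD effect between fractions had 314 calls, 42 with no variance trend, up to 2622 without 1 array and 0 without replicate 2 of NICD CD24lo (1850 at an unadjusted p under 0.05). The ablation effect had 2 calls and 1 to 26 in other fits. The irradiation effect had 1 and 0 to 2 in other fits (283 to 669 such genes at 0). The doxorubicin effect had 4, against 64 with the groups alone and 0 to 8 without 1 array (840 to 1036 such genes at 0).

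Without detection calls, the low Gsdmc2 signals carry no measure of background.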

Other observations

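Aim2, a sensor of DNA in the inflammasome list, was chosen here after its values were seen. Replicate 2 of ablated CD24hi and CD24lo cells read 2487 and 1944, and replicate 1 of untreated CD24hi and CD24lo cells 1715 and 1645. The other 16 sorted arrays read 137 to 344. The high arrays thus came as 1 replicate of each fraction in 2 conditions, and their partners of the same group lay low.

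The pseudogene Gsdmcl2, which lies in the Gsdmc row and was likewise singled out after its values were seen, read 14.7 and 41.1 in untreated CD24hi cells against 182 and 199 in untreated CD24lo cells. In irradiated CD24lo cells it read 91.0 and 81.7. Its other probe set lay below 44 on all sorted arrays.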
